A study of Rattus norvegicus with 18 samples.

Results

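The kinesin genes are the 41 genes, of 32623 in the tables, whose name begins with Kif followed by a digit or with Kifc. They were measured by RNA-seq in mesenchymal stem cells (MSCs) cultured from the bone marrow of 2-month-old Sprague-Dawley (SD) rats, either knocked out for the microRNA miR-337 (miR-337-/-, here KO) or wild type (WT). At passage 3 all cultures were first kept without serum for 8 h. Per the labels, they were then given 24 h of 10% cyclic mechanical stretch (CMS), of fetal bovine serum (FBS) or of further serum starvation (SSt). The 6 groups were thus KO CMS, KO FBS, KO SSt, WT CMS, WT FBS and WT SSt, with 3 libraries each and 18 in all. The sources used here do not say if the 3 libraries per group are separate rats or cultures, so the p-values below measure the spread between libraries. By role, fixed lists placed 14 members among the mitotic and cytokinetic motors, 15 among the cargo transport motors, 3 among motors of microtubule dynamics and neurons, 5 among ciliary and hedgehog kinesins and 2 among nonmotile signalling kinesins. Kif12 and Kif28p belonged to none of these.

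Kinesins are motor proteins that use ATP to walk along microtubules or, in some families, to shorten microtubule ends. Motors of the mitotic group build the bipolar spindle, move chromosomes and finish cytokinesis, and their genes are transcribed mostly in cells approaching or passing through division. Transport kinesins carry vesicles, endosomes, mitochondria and ciliary cargo, and most of them are made regardless of the cell cycle. In stromal cells such as MSCs, both kinds are used: dividing cells need the first, and the spread, polarised cell body needs the second.

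Depth was 56083000 to 71847969 counts per library. Replicate 1 of KO FBS stood apart from replicates 2 and 3: all 13 mitotic motors that reached 1 FPKM (fragment counts scaled to transcript length and library depth) in some library were lowest in it, and 5 of them lay within the range of KO CMS. Its log2 expression correlated at a mean r of 0.979 with the other KO FBS libraries and 0.982 with KO CMS across genes, so counts of called genes that rest on KO FBS are also given without it where they change. Of 11 MSC markers found in the tables, Lepr, the leptin receptor used to define these cells, peaked at 0.0700 FPKM and was at 0 in 13 of the 18 libraries. The other 10 MSC markers reached 1 FPKM or more. The microRNA's own row was at a count of 0 in all 18 libraries, so the tables hold no check of the genotype labels, and each genotype has its own table: the genotype and anything else that differed between the tables cannot be told apart. Stretch and serum were applied to set starved cells dividing, whereas RNA of proliferation markers was higher in the libraries labelled SSt, in both genotypes. A mix-up of treatment labels cannot be checked from the tables, so each direction below holds for the groups as labelled.

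The mitotic motors were higher in the libraries labelled SSt than in those labelled CMS or FBS, in both genotypes, and the span was wider in KO. Their summed level over the 14 genes was 22.7 ± 2.67 FPKM in KO CMS and 50.9 ± 19.9 FPKM in KO FBS, against 243.7 ± 13.2 FPKM in KO SSt (SD, n = 3 each). In WT it was 72.7 ± 3.94 FPKM under CMS and 77.6 ± 1.98 FPKM in FBS, against 135.2 ± 5.40 FPKM in SSt. KO therefore held both the highest and the lowest group of the series. As a share of all kinesin FPKM, the mitotic motors made up 7.48% to 9.35% in KO CMS and 10.5% to 20.8% in KO FBS, against 46.1% to 48.2% in KO SSt. The share was 20.42% to 22.04% in WT CMS and 23.1% to 23.8% in WT FBS, against 31.2% to 32.8% in WT SSt. In bulk RNA, fewer dividing cells and less RNA per dividing cell cannot be told apart.

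**Figure D1:**
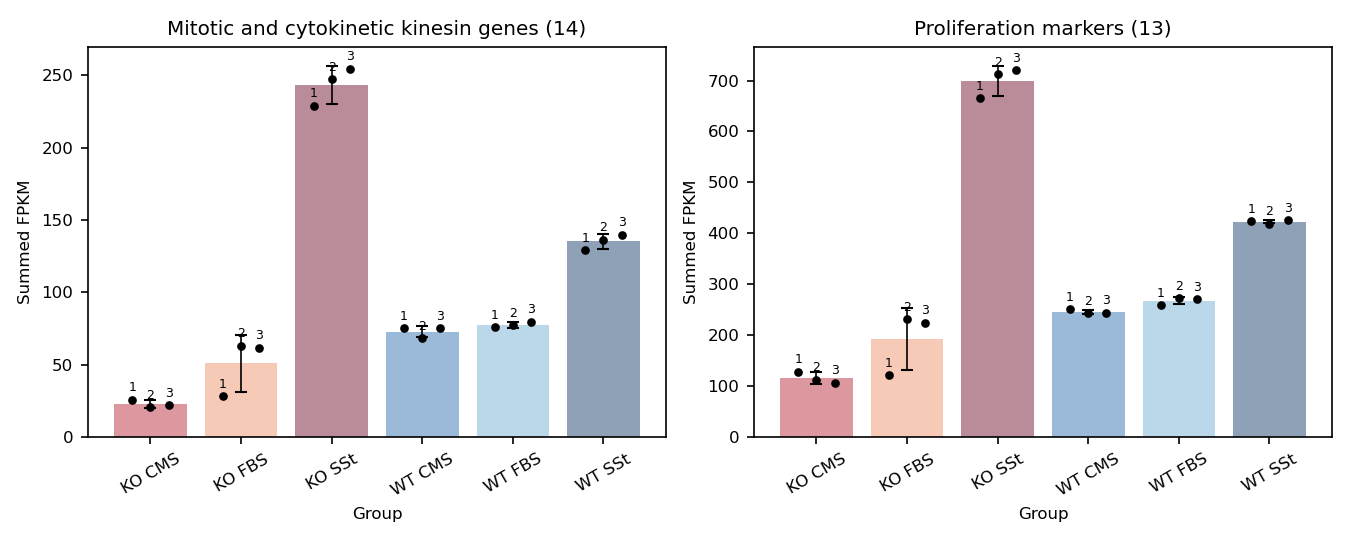
Summed FPKM per library of the 14 mitotic and cytokinetic kinesin genes (left) and of 13 proliferation markers (right) in the 6 groups; bars are means, error bars SD (n = 3), and points the libraries with their replicate number. Replicate 1 of KO FBS lies below replicates 2 and 3 in both panels, and KO SSt is the highest group, with 243.7 ± 13.2 FPKM of mitotic kinesin RNA.

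Proliferation markers moved with the mitotic motors. The 13 markers, among them Mki67, Top2a and Cdk1, summed to 106 to 128 FPKM in KO CMS and 121 to 231 FPKM in KO FBS, against 666 to 721 FPKM in KO SSt. In WT they summed to 243 to 250 FPKM under CMS and 259 to 273 FPKM in FBS, against 419 to 425 FPKM in SSt. Thus the groups stood in the same order as for the motors. Markers of macrophages and other blood cells did not move as one. Their sum, most of it Lyz2 (1481 to 5102 FPKM), was higher in the treated groups: 3764 to 4051 FPKM in KO CMS and 3639 to 4622 FPKM in KO FBS, against 2072 to 2185 FPKM in KO SSt. The WT sums were 5714 to 6027 FPKM under CMS and 5936 to 6271 FPKM in FBS, against 3414 to 3571 FPKM in SSt. Among these markers, the T cell gene Cd3e and the scavenger receptor Cd163 stayed below 1 FPKM in every library. Of 11 tested in KO, 4 were called higher and 5 lower under CMS, and 5 higher and 2 lower in FBS (4 and 0 without replicate 1 of KO FBS). Of 11 in WT, 1 was called higher and 2 lower under CMS, and 1 higher and 1 lower in FBS. Of all genes tested, 9.56% were called higher and 9.66% lower in KO CMS, and 9.47% and 7.67% in KO FBS. The WT shares were 8.66% higher and 8.02% lower under CMS, and 8.95% and 7.14% in FBS. C1qa, a complement gene of macrophages, averaged 3.67 FPKM in KO CMS, against 45.7 FPKM in KO SSt. The part that the makeup of the cultures had in the kinesin values was not tested.

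Promoter sequences were matched for 31 of the 41 members (RefSeq, build GRCr8; 250 bases before to 50 after the annotated start). Short sequences of known use were looked for on both strands: TTTGAA and TTCGAA, forms of the core of the cell cycle homology region, CCAAT, the core of the NF-Y site, and TTTCCCGC and TTTGGCGC, forms of the E2F site. TTTGAA and CCAAT are known from promoters of genes used in G2 and mitosis in human and mouse cells. TTTGAA was found in 6 of 12 mitotic promoters (50%), in 0 of 11 transport promoters and in 18.3% of 33469 rat promoters. CCAAT was found in 8 of 12 mitotic promoters (66.7%), in 3 of 11 transport promoters (27.3%) and in 37.5% of all. The pair stood together in 5 of the 12 (41.7%), in none of the 11 and in 7.41% of all. The other forms were rare: TTCGAA stood in 1 of the 12 mitotic promoters (1.69% of all), TTTGGCGC in 1 (0.493% of all) and TTTCCCGC in 0 (0.974% of all), and none stood in a transport promoter. A match of letters is a description of the window and not a measured site. Shown are the 150 bases before the start of 3 mitotic motors that held both, Kif23, Kifc1 and Kif22, and of 2 of the most abundant transport motors, Kif5b with CCAAT alone and Kif1c with neither; capitals mark TTTGAA or CCAAT, or their reverse complements TTCAAA and ATTGG.
Kif23, chr8:71320585-71320734, minus strand: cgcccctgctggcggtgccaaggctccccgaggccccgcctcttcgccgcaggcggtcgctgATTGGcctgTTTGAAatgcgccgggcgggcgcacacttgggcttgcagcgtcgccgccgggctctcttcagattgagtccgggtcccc
Kifc1, chr20:5000779-5000928, plus strand: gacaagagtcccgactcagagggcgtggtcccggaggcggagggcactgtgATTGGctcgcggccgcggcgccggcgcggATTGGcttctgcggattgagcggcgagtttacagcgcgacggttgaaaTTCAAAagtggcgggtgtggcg
Kif22, chr1:191080879-191081028, minus strand: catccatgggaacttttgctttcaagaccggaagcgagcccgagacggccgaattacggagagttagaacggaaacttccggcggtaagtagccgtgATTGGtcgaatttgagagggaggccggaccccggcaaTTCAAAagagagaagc
Kif5b, chr17:56185236-56185385, plus strand: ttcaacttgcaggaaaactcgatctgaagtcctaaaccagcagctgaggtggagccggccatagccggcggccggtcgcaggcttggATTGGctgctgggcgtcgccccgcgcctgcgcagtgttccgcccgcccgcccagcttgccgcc
Kif1c, chr10:55912943-55913092, plus strand: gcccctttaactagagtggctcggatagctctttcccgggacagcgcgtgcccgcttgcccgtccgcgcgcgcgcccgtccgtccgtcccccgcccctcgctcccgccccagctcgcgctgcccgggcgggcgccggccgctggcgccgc

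Tests were fitted to counts with edgeR's quasi-likelihood method, with Benjamini-Hochberg adjustment over every gene tested in a comparison; a gene passed at an adjusted p below 0.05 and was called when it also differed at least 2-fold. Only genes at 1 FPKM or more in at least 3 of the libraries fitted were tested, which left 28 members in WT, 29 in KO and 30 in the joint fit. Kif5c and Kif21a entered the WT fit, and Kif24 the KO and joint fits, only through SSt libraries. They could hardly fail to be higher there. FBS and CMS share the same SSt libraries, and their values are therefore set side by side and not compared as independent results.

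In WT-MSCs the mitotic motors fell moderately and alike under both stimuli. All 12 tested members passed as lower in FBS than in SSt, of which 3 were called, and all 12 passed as lower under CMS, of which 5 were called. Their median log2 difference was -0.85 in FBS and -0.93 under CMS, against 0.01 and 0.02 over all genes tested. Of all genes tested, 7.14% were called lower in FBS and 8.02% under CMS, and 32.7% and 32.3% passed as lower. Over all kinesins, 6 were called lower in FBS and 9 under CMS. Both counts include Kif5c and Kif21a, which entered the WT fit only through SSt libraries. None of the tested members was called higher, against 8.95% of all genes in FBS and 8.66% under CMS. With no filter on low values, 4 were called higher in FBS, Kif5a, Kif6, Kif9 and Kifc2, and 2 under CMS, Kif5a and Kif6. The share of all genes called in that fit is not given here, so these counts have no background. Kif6 averaged only 5.33 counts in WT FBS and in WT CMS, against 0 in WT SSt. The 6 called lower in FBS with the filter became 3 without replicate 3 of WT SSt and 4 without replicate 1 or replicate 2 of it. Between CMS and FBS in WT, 0 of the 12 mitotic motors passed by edgeR and 2, Kif20a and Kif23, had an unadjusted p below 0.05, with log2 differences of -0.31 to 0.07; over all genes 0.217% were called in that comparison, and DESeq2 called 0 kinesins too. By edgeR 4 kinesins passed as higher and 1 as lower in WT CMS over WT FBS, all transport motors and none called; of all genes 3.91% passed as higher and 5.03% as lower.

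In KO-MSCs the same genes had larger drops. All 13 tested mitotic motors were called lower in KO FBS than in KO SSt, with a median of -2.34 on the log2 scale, and all 13 under CMS, with a median of -3.60. The 13 include Kif24, which entered this fit only through its SSt libraries. The backgrounds were 7.67% of genes called lower in FBS and 9.66% under CMS, with medians over all genes of 0.02 and -0.0016. Without replicate 1 of KO FBS, the 13 remained called in FBS and the median was -1.95. The drop under CMS ran from a log2 difference of -2.42 for Kif22 to -4.24 for Kif14.

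**Figure D2:**
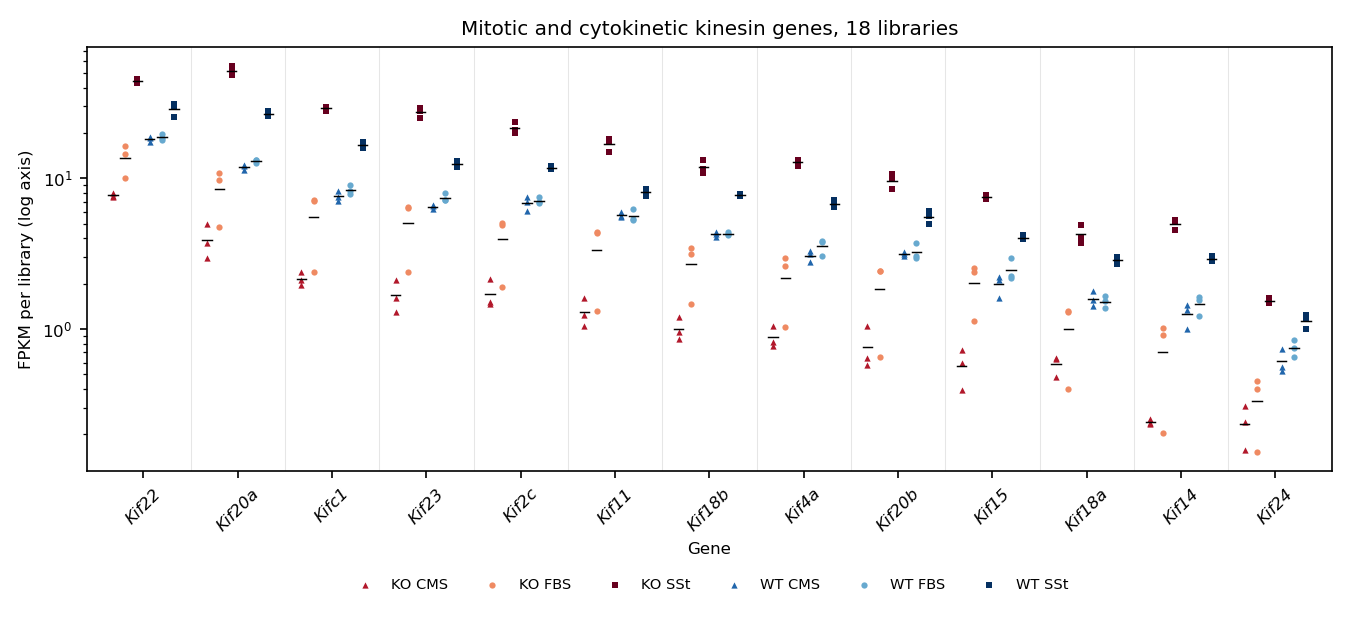
FPKM (log axis) in each of the 18 libraries for the 13 mitotic and cytokinetic kinesin genes that reached 1 FPKM in some library; colours and symbols give the 6 groups, short lines the group means (n = 3). By group mean, KO SSt is the highest and KO CMS the lowest group for every gene shown.

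Kif11 (Eg5), a homotetrameric motor that pushes the spindle poles apart, is the best known of the group. In KO-MSCs, Kif11 measured 1.60, 1.25 and 1.05 FPKM under CMS and 1.32, 4.41 and 4.34 FPKM in FBS, against 15.0, 18.4 and 17.5 FPKM in SSt. In WT-MSCs, Kif11 measured 5.96, 5.66 and 5.56 FPKM under CMS and 5.34, 6.25 and 5.32 FPKM in FBS, against 8.53, 7.66 and 8.21 FPKM in SSt. Treated and SSt libraries did not overlap in either genotype. Its log2 difference was -3.60 (SE 0.409, adjusted p = 7.32e-05) under CMS and -2.28 (SE 0.384, adjusted p = 0.000871) in FBS in KO. The WT values were -0.53 (SE 0.0702, adjusted p = 8.13e-05) under CMS and -0.56 (SE 0.0702, adjusted p = 5.3e-05) in FBS, the smallest drops among the mitotic motors there. Kif15, which can take over part of Kif11's work on the spindle, had larger drops. In KO-MSCs, Kif15 measured 0.726, 0.392 and 0.600 FPKM under CMS and 1.13, 2.40 and 2.56 FPKM in FBS, against 7.33, 7.71 and 7.44 FPKM in SSt. In WT-MSCs, Kif15 measured 2.23, 1.61 and 2.12 FPKM under CMS and 2.18, 2.98 and 2.26 FPKM in FBS, against 3.94, 3.98 and 4.21 FPKM in SSt. The log2 difference of Kif15 was -3.60 (SE 0.318, adjusted p = 1.57e-05) in KO CMS and -1.05 (SE 0.145, adjusted p = 0.000112) in WT CMS.

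Kifc1, a minus-end-directed motor that focuses spindle poles, opposes Kif11. In KO-MSCs, Kifc1 measured 2.11, 1.97 and 2.38 FPKM under CMS and 2.38, 7.18 and 7.06 FPKM in FBS, against 27.9, 29.8 and 29.5 FPKM in SSt. In WT-MSCs, Kifc1 measured 7.52, 7.03 and 8.18 FPKM under CMS and 8.18, 9.01 and 7.82 FPKM in FBS, against 15.8, 16.3 and 17.4 FPKM in SSt. No treated library reached an SSt library. Under CMS its log2 difference was -3.64 ± 0.358 (SE) in KO and -1.15 ± 0.0734 (SE) in WT, called in both.

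The chromosome-bound and kinetochore motors moved in the same direction. Kif22 (Kid), a chromokinesin that pushes chromosome arms away from the poles, and Kif20a took the first and second ranks among mitotic kinesins by FPKM in all 18 libraries. In KO-MSCs, Kif22 measured 7.61, 7.52 and 8.02 FPKM under CMS and 10.1, 16.5 and 14.4 FPKM in FBS, against 43.0, 45.2 and 45.4 FPKM in SSt. In WT-MSCs, Kif22 measured 18.6, 17.3 and 18.8 FPKM under CMS and 18.5, 17.9 and 19.7 FPKM in FBS, against 25.5, 31.1 and 29.5 FPKM in SSt. Kif22 thus had the smallest fold drop in KO, -2.42 (SE 0.144, adjusted p = 1.6e-06) under CMS. Kif4a, a second chromokinesin that also sets the length of the central spindle with Prc1, fell more. In KO-MSCs, Kif4a measured 1.05, 0.815 and 0.777 FPKM under CMS and 1.03, 2.94 and 2.60 FPKM in FBS, against 12.0, 13.2 and 13.3 FPKM in SSt. In WT-MSCs, Kif4a measured 3.13, 2.79 and 3.28 FPKM under CMS and 3.76, 3.03 and 3.85 FPKM in FBS, against 6.51, 6.43 and 7.18 FPKM in SSt. In KO its log2 difference was -3.75 ± 0.337 (SE) under CMS.

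Kif2c (MCAK) does not walk but takes tubulin off microtubule ends, which lets wrong kinetochore attachments be corrected. In KO-MSCs, Kif2c measured 2.14, 1.47 and 1.52 FPKM under CMS and 1.91, 5.07 and 4.88 FPKM in FBS, against 20.0, 21.0 and 23.5 FPKM in SSt. In WT-MSCs, Kif2c measured 7.46, 6.04 and 6.97 FPKM under CMS and 6.88, 6.93 and 7.47 FPKM in FBS, against 11.7, 11.5 and 12.1 FPKM in SSt. Both genotypes showed the drop, -3.54 in KO CMS and -0.81 in WT CMS on the log2 scale. Kif18a, which damps chromosome movements at metaphase, was less abundant. In KO-MSCs, Kif18a measured 0.635, 0.480 and 0.647 FPKM under CMS and 0.399, 1.29 and 1.31 FPKM in FBS, against 3.74, 4.11 and 4.88 FPKM in SSt. In WT-MSCs, Kif18a measured 1.78, 1.41 and 1.56 FPKM under CMS and 1.38, 1.53 and 1.66 FPKM in FBS, against 3.03, 2.92 and 2.70 FPKM in SSt. Its KO CMS value, -2.74 (SE 0.386, adjusted p = 0.000275), was among the smaller drops of the group. Kif18b restrains astral microtubules. In KO-MSCs, Kif18b measured 1.21, 0.951 and 0.856 FPKM under CMS and 1.48, 3.13 and 3.47 FPKM in FBS, against 11.6, 13.2 and 10.9 FPKM in SSt. In WT-MSCs, Kif18b measured 4.43, 4.11 and 4.28 FPKM under CMS and 4.38, 4.19 and 4.28 FPKM in FBS, against 7.67, 7.82 and 7.88 FPKM in SSt. Its WT replicates were tight, and its WT CMS log2 difference of -0.89 (SE 0.0477, adjusted p = 9.72e-08) missed the 2-fold limit but not the test.

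The motors of the central spindle and the midbody included Kif14 and Kif23, which had the largest fold drops under CMS in KO. Kif20a (Mklp2) brings the Aurora B complex to the central spindle. In KO-MSCs, Kif20a measured 4.94, 2.97 and 3.71 FPKM under CMS and 4.77, 9.82 and 10.8 FPKM in FBS, against 48.8, 50.3 and 55.3 FPKM in SSt. In WT-MSCs, Kif20a measured 12.2, 11.3 and 12.1 FPKM under CMS and 12.7, 13.2 and 13.2 FPKM in FBS, against 25.8, 26.3 and 28.0 FPKM in SSt. Kif20a was called in all 4 comparisons with SSt, with log2 differences of -3.62 ± 0.300 in KO CMS, -2.55 ± 0.285 in KO FBS, -1.19 ± 0.0457 in WT CMS and -1.07 ± 0.0455 in WT FBS (SE). Kif23 (Mklp1) forms the centralspindlin complex with Racgap1. In KO-MSCs, Kif23 measured 2.13, 1.61 and 1.31 FPKM under CMS and 2.40, 6.49 and 6.35 FPKM in FBS, against 25.3, 27.9 and 29.4 FPKM in SSt. In WT-MSCs, Kif23 measured 6.62, 6.24 and 6.59 FPKM under CMS and 7.17, 7.20 and 7.95 FPKM in FBS, against 12.0, 12.3 and 12.9 FPKM in SSt. Under CMS it fell by 3.92 on the log2 scale in KO and by 0.96 in WT. Kif14 acts in cytokinesis with Prc1 and citron kinase. In KO-MSCs, Kif14 measured 0.252, 0.233 and 0.240 FPKM under CMS and 0.204, 1.01 and 0.908 FPKM in FBS, against 4.53, 5.10 and 5.29 FPKM in SSt. In WT-MSCs, Kif14 measured 1.33, 1.01 and 1.44 FPKM under CMS and 1.57, 1.22 and 1.63 FPKM in FBS, against 2.81, 2.86 and 3.07 FPKM in SSt. Kif14 had the largest KO fold difference of the group, -4.24 (SE 0.494, adjusted p = 8.58e-05) under CMS.

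Kif20b, also a cytokinesis motor, followed the pattern. In KO-MSCs, Kif20b measured 1.05, 0.581 and 0.646 FPKM under CMS and 0.652, 2.43 and 2.44 FPKM in FBS, against 8.51, 9.82 and 10.7 FPKM in SSt. In WT-MSCs, Kif20b measured 3.13, 3.07 and 3.27 FPKM under CMS and 3.04, 2.97 and 3.75 FPKM in FBS, against 4.96, 6.06 and 5.65 FPKM in SSt. Its log2 difference was -3.56 ± 0.460 in KO CMS and -0.84 ± 0.0997 in WT CMS (SE). Kif24, which sits on centrioles with Cp110 and holds back cilium formation, was the least abundant of the tested mitotic motors. In KO-MSCs, Kif24 measured 0.242, 0.309 and 0.158 FPKM under CMS and 0.153, 0.400 and 0.454 FPKM in FBS, against 1.49, 1.49 and 1.62 FPKM in SSt. In WT-MSCs, Kif24 measured 0.562, 0.528 and 0.740 FPKM under CMS and 0.748, 0.655 and 0.850 FPKM in FBS, against 1.23, 1.16 and 0.998 FPKM in SSt. It was called in KO, -2.58 (SE 0.380, adjusted p = 0.000353) under CMS. It did not enter the WT fit, where the fit without a filter gave -0.93 under CMS. Kif2b, another microtubule-shortening kinesin, had counts in 1 library only, and at most 4.

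The difference between the genotypes' responses was tested in the joint fit of all 18 libraries. For CMS, all 13 mitotic motors were called, each with a more negative response in KO, with a median of -2.56 against -0.05 over all genes, where 6.65% were called in that direction. For FBS, 11 of 13 were called, with a median of -1.50 against -0.01 and a background of 3.64%. Both counts include Kif24, which entered the joint fit only through SSt libraries. Kif11 had the largest CMS difference, -3.06 (SE 0.414, adjusted p = 3.04e-05), and Kif18a and Kif22 missed the call for FBS, at -1.06 (SE 0.405, adjusted p = 0.0529) and -0.99 (SE 0.164, adjusted p = 0.000319). Kif22 passed the test there and fell just short of the 2-fold limit. Without replicate 1 of KO FBS, 8 of 13 were called for FBS and the median was -1.17. Without replicate 2 of WT FBS, Kif15 lost its call, at -0.92 (adjusted p = 0.066).

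Levels of the 2 genotypes under the same label showed where this difference lay. In SSt, 9 of 13 mitotic motors passed as higher in KO than in WT, with a median of 0.74 on the log2 scale against 0.02 over all genes, of which 24.2% passed as higher; only Kif23 was called, at 1.08 (SE 0.245, adjusted p = 0.00215), where 2.67% of all genes were called higher. Under CMS all 13 were called lower in KO than in WT, from -1.18 for Kif22 to -2.31 for Kif14, with a background of 4.72%. In FBS, Kif14 and Kif24 were called lower in KO than in WT, with a background of 1.52%, and neither was called without replicate 1 of KO FBS. The call of Kif14 was also lost without any 1 of the WT FBS libraries. No mitotic motor was called in FBS without that library, when the median was -0.34.

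Between the stimuli in KO, 7 of 13 mitotic motors were called lower under CMS than in FBS, with a median of -1.26 and a background of 2.05% of genes called lower. They were Kif15, Kif18b, Kif20a, Kif23, Kif2c, Kif4a and Kifc1. Without replicate 1 of KO FBS, 11 were called and the median was -1.61. Kif15 had the largest value, -1.76 (SE 0.302, adjusted p = 0.00705), while Kif11, -1.31 (SE 0.382, adjusted p = 0.0517), did not pass. The count was 1 without replicate 2 or replicate 3 of KO CMS, and 2 without replicate 2 or replicate 3 of KO FBS. In a fit of these 6 libraries alone it was 1.

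**Figure D3:**
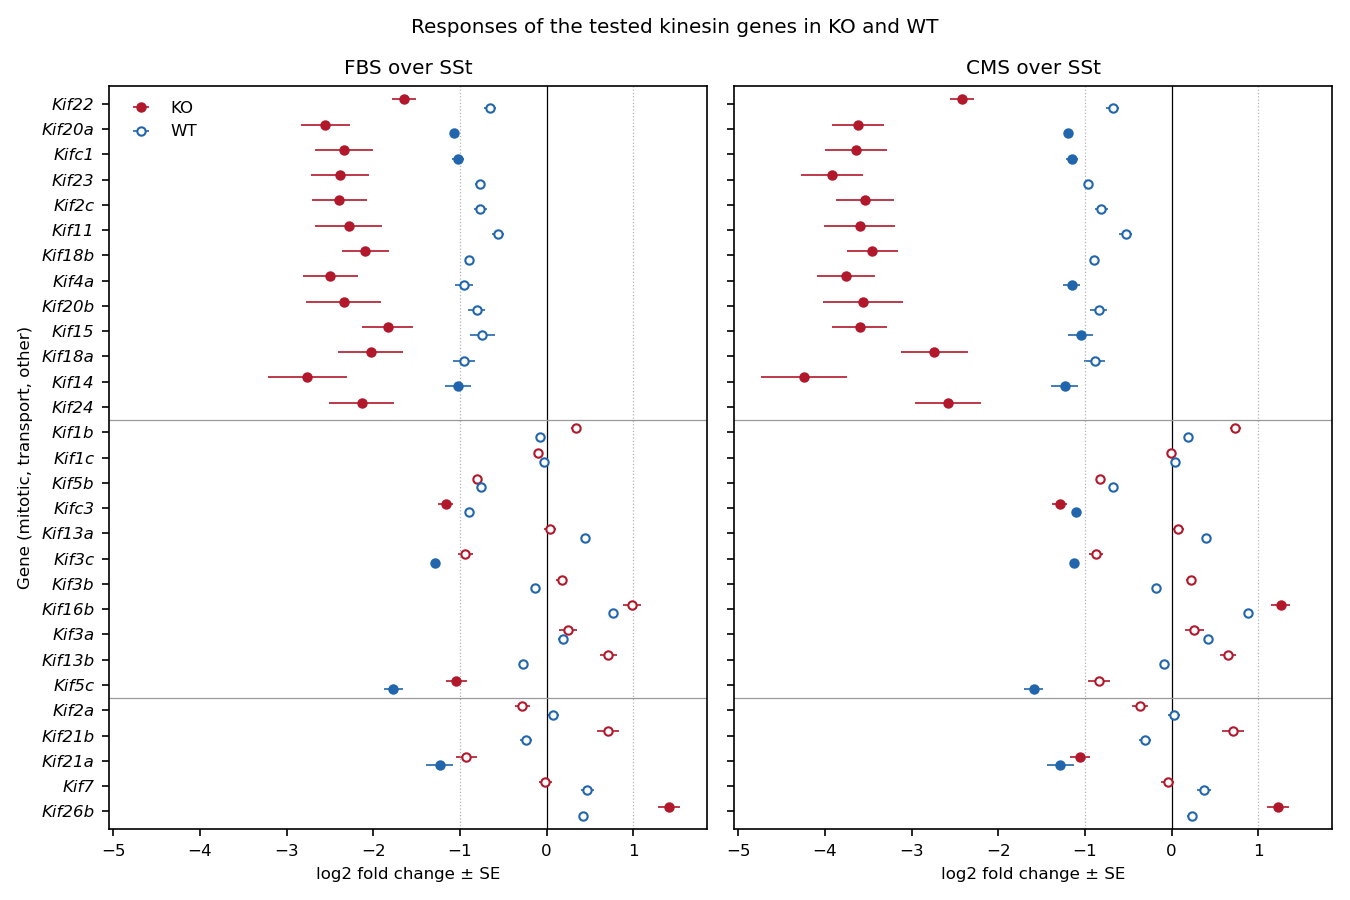
log2 fold change over SSt with its SE for FBS (left) and CMS (right) in KO and WT, for each kinesin gene tested within a genotype; filled points were called (adjusted p below 0.05 and at least 2-fold), and dotted lines mark a 2-fold difference. In KO the 13 mitotic motors lie between -2.42 and -4.24 under CMS, left of the WT points, while transport motors lie on both sides of 0.

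The transport motors did not move as a group. Of 11 tested within each genotype, 4 passed as higher and 4 as lower in KO FBS, as also in KO CMS. In WT FBS 3 passed as higher and 6 as lower, and in WT CMS 4 and 5. Of all genes, 30.3% passed as higher and 29.5% as lower in KO FBS, and 30.8% and 30.7% in KO CMS. The WT shares were 33.7% and 32.7% in FBS and 34.6% and 32.3% under CMS. Their medians lay between -0.13 and 0.08 in the 4 comparisons with SSt, against -0.0016 to 0.02 over all genes; the KO medians, 0.037 in FBS and 0.079 under CMS, turned to -0.019 and -0.033 when libraries were scaled by their totals alone. When replicate 1 of KO FBS was left out, 3 passed as higher and 4 as lower there, and the median was -0.010. Called were 2 of 11 lower in KO FBS, 1 higher and 1 lower in KO CMS, 2 lower in WT FBS and 3 lower in WT CMS, against shares of all genes called lower of 7.67% in KO FBS, 9.66% in KO CMS, 7.14% in WT FBS and 8.02% in WT CMS. Both WT counts include Kif5c, which entered the WT fit only through its SSt libraries. The motors called lower were kinesin-1, kinesin-2 and minus-end motors.

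Kinesin-1 is the main anterograde motor for vesicles and mitochondria, and its heavy chain is made from Kif5a, Kif5b or Kif5c. Kif5b, the form present in most tissues, was among the 3 most abundant kinesins. In KO-MSCs, Kif5b measured 32.5, 32.8 and 34.5 FPKM under CMS and 34.7, 34.9 and 34.8 FPKM in FBS, against 61.8, 64.0 and 65.0 FPKM in SSt. In WT-MSCs, Kif5b measured 38.6, 38.2 and 38.8 FPKM under CMS and 37.4, 35.8 and 36.4 FPKM in FBS, against 60.5, 60.2 and 60.2 FPKM in SSt. The groups were far apart, with log2 differences of -0.83 ± 0.0435 in KO CMS, -0.81 ± 0.0435 in KO FBS, -0.67 ± 0.0286 in WT CMS and -0.76 ± 0.0287 in WT FBS (SE), none of which reached 2-fold. In FBS the response of Kif5b differed between KO and WT by -0.04 (SE 0.0485, adjusted p = 0.571), and its SSt level by 0.0044. Under CMS its KO over WT difference was -0.13 (SE 0.0364, adjusted p = 0.0149) in the fit without a filter.

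Kif5c, best known from neurons, fell in both genotypes but at unequal levels. In KO-MSCs, Kif5c measured 1.85, 1.62 and 1.87 FPKM under CMS and 1.87, 1.48 and 1.44 FPKM in FBS, against 3.56, 3.22 and 3.52 FPKM in SSt. In WT-MSCs, Kif5c measured 0.598, 0.627 and 0.611 FPKM under CMS and 0.499, 0.524 and 0.611 FPKM in FBS, against 1.78, 1.88 and 1.80 FPKM in SSt. Every KO library under CMS or FBS thus held more Kif5c than every WT library under the same label, and the log2 difference of KO over WT was 1.60 (SE 0.114, adjusted p = 8.95e-08) under CMS and 1.58 (SE 0.114, adjusted p = 1.65e-07) in FBS. Of all genes, 3.58% were called higher in KO under CMS and 2.50% in FBS. Without replicate 1 of KO FBS the FBS difference was 1.43 and still called. In SSt the KO over WT difference was 0.84 (SE 0.110, adjusted p = 2e-05). Within a genotype, the drop was called in WT CMS, -1.59, in WT FBS, -1.77, and in KO FBS, -1.04, while KO CMS, -0.84, missed 2-fold. Kif5c entered the WT fit only through its SSt libraries, so it could hardly fail to be lower in the treated WT libraries. Kif5a, the third heavy chain, stayed below 1 FPKM in every library and entered only the fit without a filter, which gave 1.64 (SE 0.207, adjusted p = 5.83e-05) in WT CMS and 1.85 (SE 0.208, adjusted p = 2.41e-05) in WT FBS. In KO that fit gave 1.07 (SE 0.372, adjusted p = 0.0462) in FBS and 0.07 (SE 0.372, adjusted p = 0.932) under CMS. In KO-MSCs, Kif5a measured 0.328, 0.231 and 0.139 FPKM under CMS and 0.286, 0.495 and 0.672 FPKM in FBS, against 0.275, 0.248 and 0.183 FPKM in SSt. In WT-MSCs, Kif5a measured 0.580, 0.603 and 0.642 FPKM under CMS and 0.595, 0.662 and 0.871 FPKM in FBS, against 0.206, 0.215 and 0.144 FPKM in SSt. In WT its treated libraries all lay above its SSt libraries, and in KO its FBS libraries did, the opposite of its relatives.

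Kinesin-2 motors drive transport into cilia and along the cell body, with Kif3a paired with Kif3b or Kif3c. Kif3c fell while its partners differed less. In KO-MSCs, Kif3c measured 7.05, 7.63 and 6.70 FPKM under CMS and 6.31, 7.90 and 6.92 FPKM in FBS, against 14.9, 14.1 and 13.2 FPKM in SSt. In WT-MSCs, Kif3c measured 7.39, 7.31 and 7.76 FPKM under CMS and 6.71, 6.70 and 6.71 FPKM in FBS, against 16.4, 15.8 and 15.9 FPKM in SSt. The log2 differences were -1.12 (SE 0.0396, adjusted p = 5.01e-09) in WT CMS and -1.29 (SE 0.0398, adjusted p = 2.05e-09) in WT FBS, both called, against -0.87 in KO CMS and -0.94 in KO FBS, which passed without reaching 2-fold. Kif3a ranged from 4.44 to 7.24 FPKM over all libraries and Kif3b from 8.39 to 10.6 FPKM. Kif3a passed as higher in WT CMS, 0.43, and WT FBS, 0.19, and did not pass in KO, where the values were 0.26 and 0.25. Kif17, the kinesin-2 that works alone, did not exceed 0.0972 FPKM.

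The kinesin-3 motors carry membrane cargo. Kif1b and Kif1c, which move mitochondria or vesicles, were above Kif5b by FPKM in the CMS and FBS groups. In WT SSt both were near Kif5b. In KO SSt Kif1c was near it, while Kif1b was lower, at 46.6 to 48.6 FPKM against 61.8 to 65.0 FPKM for Kif5b. In KO-MSCs, Kif1c measured 56.4, 58.4 and 56.6 FPKM under CMS and 51.8, 57.5 and 57.0 FPKM in FBS, against 61.4, 62.5 and 62.0 FPKM in SSt. In WT-MSCs, Kif1c measured 62.7, 63.8 and 61.6 FPKM under CMS and 60.0, 61.4 and 60.3 FPKM in FBS, against 61.4, 59.5 and 59.5 FPKM in SSt. Kif1c passed in no comparison within a genotype, its largest log2 difference being -0.10 ± 0.0401 (SE) in KO FBS. In KO-MSCs, Kif1b measured 69.9, 74.3 and 76.2 FPKM under CMS and 58.4, 60.6 and 54.3 FPKM in FBS, against 47.5, 48.6 and 46.6 FPKM in SSt. In WT-MSCs, Kif1b measured 68.0, 68.7 and 70.0 FPKM under CMS and 58.2, 56.2 and 59.4 FPKM in FBS, against 57.2, 58.2 and 62.7 FPKM in SSt. Kif1b passed as higher under CMS in both genotypes, 0.74 (SE 0.0598, adjusted p = 9.34e-06) in KO and 0.19 (SE 0.0368, adjusted p = 0.00112) in WT, and also passed as higher under CMS than in FBS, 0.40 in KO and 0.26 in WT. It was thus highest in the CMS libraries of both genotypes, without overlap.

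Kif16b, which positions early endosomes by binding their lipids, was the tested transport motor that rose most. In KO-MSCs, Kif16b measured 11.3, 11.5 and 9.23 FPKM under CMS and 9.92, 8.81 and 8.64 FPKM in FBS, against 4.31, 5.07 and 5.04 FPKM in SSt. In WT-MSCs, Kif16b measured 11.0, 10.1 and 10.7 FPKM under CMS and 9.86, 9.33 and 10.4 FPKM in FBS, against 5.63, 5.77 and 5.56 FPKM in SSt. Its log2 difference was 1.26 (SE 0.108, adjusted p = 1.34e-05) in KO CMS, where 9.56% of genes were called higher. The other 3 values, 0.99 in KO FBS, 0.88 in WT CMS and 0.77 in WT FBS, passed below 2-fold. Kif13b, a carrier of the polarity protein Dlg1, differed most by genotype in SSt among the transport motors. In KO-MSCs, Kif13b measured 5.38, 4.46 and 4.89 FPKM under CMS and 5.82, 5.20 and 4.85 FPKM in FBS, against 3.22, 3.40 and 3.49 FPKM in SSt. In WT-MSCs, Kif13b measured 6.05, 6.16 and 6.12 FPKM under CMS and 5.18, 5.53 and 5.58 FPKM in FBS, against 6.47, 6.62 and 6.07 FPKM in SSt. The SSt difference of KO over WT was -0.995 (SE 0.0782, adjusted p = 1.34e-07), just short of 2-fold, and in FBS it was -0.0012 (SE 0.0774, adjusted p = 0.994). Kif13a, which carries mannose 6-phosphate receptors, passed as higher in WT CMS, 0.40, and WT FBS, 0.45, and had KO values of 0.08 and 0.04. Kif1a, the synaptic vesicle motor, did not exceed 0.126 FPKM.

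Of the minus-end-directed transport motors, Kifc3, which works at cell junctions and in apical transport, fell in every comparison with SSt. In KO-MSCs, Kifc3 measured 6.85, 8.32 and 6.68 FPKM under CMS and 8.02, 8.23 and 8.41 FPKM in FBS, against 18.1, 20.0 and 19.6 FPKM in SSt. In WT-MSCs, Kifc3 measured 9.72, 9.82 and 9.37 FPKM under CMS and 10.8, 11.5 and 11.5 FPKM in FBS, against 20.3, 21.1 and 19.8 FPKM in SSt. Its log2 differences were -1.29 ± 0.0861 in KO CMS, -1.17 ± 0.0859 in KO FBS and -1.11 ± 0.0417 in WT CMS (SE), all called, and -0.89 ± 0.0415 in WT FBS, which passed. The neuronal motor Kifc2 lay between 0.146 and 1.19 FPKM and, of the fits with the filter, entered only the joint one. There KO was lower than WT in SSt, -0.85 (SE 0.289, adjusted p = 0.0252). Without the filter, Kifc2 was called higher in WT FBS, as given above, and in KO FBS, 1.47 (SE 0.347, adjusted p = 0.00718). In KO CMS it did not pass, at 0.95 (SE 0.345, adjusted p = 0.0529).

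**Figure D4:**
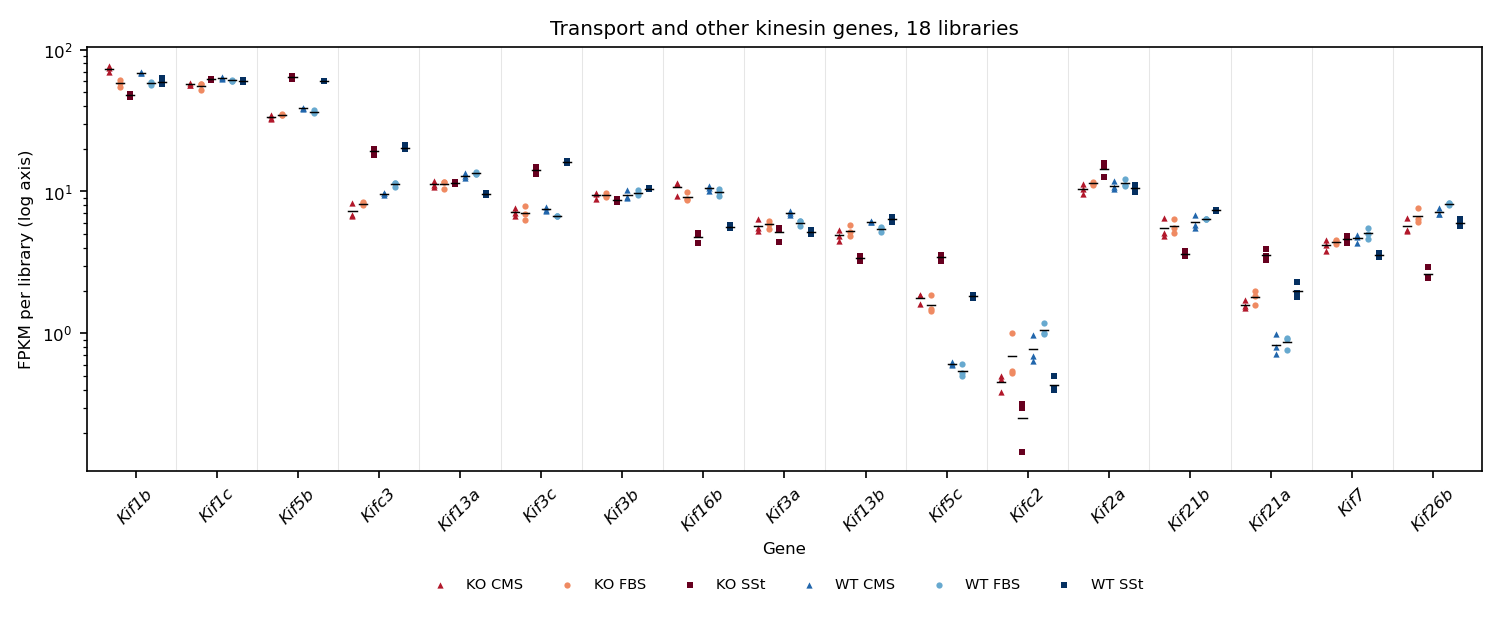
FPKM (log axis) in each of the 18 libraries for the transport and other kinesin genes that reached 1 FPKM in some library; colours and symbols give the 6 groups, short lines the group means (n = 3). Kif5b, Kifc3, Kif3c, Kif5c and Kif21a are highest in the SSt groups of each genotype, Kif16b is lowest there, and Kif1c stays between 51.8 and 63.8 FPKM.

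The kinesins that act on microtubule ends or in neurons differed from each other. Kif21a, which stops microtubule growth at the cell edge, fell. In KO-MSCs, Kif21a measured 1.56, 1.71 and 1.50 FPKM under CMS and 1.98, 1.59 and 1.83 FPKM in FBS, against 3.48, 3.94 and 3.31 FPKM in SSt. In WT-MSCs, Kif21a measured 0.719, 0.798 and 0.986 FPKM under CMS and 0.912, 0.927 and 0.769 FPKM in FBS, against 1.92, 2.29 and 1.80 FPKM in SSt. Kif21a entered the WT fit only through its SSt libraries, so it could hardly fail to be lower in the treated WT libraries. It was called in WT CMS, -1.29 (SE 0.157, adjusted p = 4.47e-05), WT FBS, -1.24 (SE 0.156, adjusted p = 5.98e-05), and KO CMS, -1.06 (SE 0.118, adjusted p = 6.62e-05), and it was called higher in KO than in WT in FBS, 1.08 (SE 0.141, adjusted p = 5.3e-05), where 2.50% of genes were. Without replicate 1 of KO FBS that value was 0.98, below 2-fold, and the drop in KO FBS, -0.93 with all libraries, was -1.02 and called. Kif21b, a related motor that pauses microtubule growth in neurons and T cells, moved in opposite directions in the genotypes. In KO-MSCs, Kif21b measured 6.46, 5.11 and 4.89 FPKM under CMS and 6.35, 5.07 and 5.57 FPKM in FBS, against 3.52, 3.81 and 3.54 FPKM in SSt. In WT-MSCs, Kif21b measured 6.82, 5.76 and 5.56 FPKM under CMS and 6.39, 6.37 and 6.37 FPKM in FBS, against 7.34, 7.32 and 7.40 FPKM in SSt. It passed as higher in KO CMS, 0.71, and as lower in WT CMS, -0.31, and the difference of the responses was called, 1.02 (SE 0.150, adjusted p = 6.41e-05), where 6.77% of genes were called in that direction. Its KO and WT levels differed in SSt, -1.09 (SE 0.107, adjusted p = 1.21e-06), where 4.66% of genes were called lower in KO, and not detectably under CMS, -0.08 (SE 0.106, adjusted p = 0.616). Kif2a, which shortens microtubules at spindle poles and in growing axons, is a relative of Kif2c that did not share its large drop. In KO-MSCs, Kif2a measured 11.2, 10.4 and 9.61 FPKM under CMS and 11.3, 11.7 and 11.2 FPKM in FBS, against 12.6, 15.9 and 14.8 FPKM in SSt. In WT-MSCs, Kif2a measured 11.8, 10.4 and 10.8 FPKM under CMS and 12.2, 11.2 and 10.9 FPKM in FBS, against 11.1, 10.7 and 9.94 FPKM in SSt. It passed as lower in KO CMS, -0.36, and KO FBS, -0.28, and not in WT, 0.03 and 0.07.

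Kif26b, a kinesin that lost its motor activity and takes part in cell adhesion and noncanonical Wnt signalling, rose in KO. In KO-MSCs, Kif26b measured 6.48, 5.33 and 5.30 FPKM under CMS and 7.65, 6.07 and 6.38 FPKM in FBS, against 2.93, 2.46 and 2.49 FPKM in SSt. In WT-MSCs, Kif26b measured 7.62, 6.97 and 6.90 FPKM under CMS and 8.06, 8.33 and 8.23 FPKM in FBS, against 5.67, 6.41 and 5.83 FPKM in SSt. The log2 difference was 1.41 (SE 0.128, adjusted p = 2.38e-05) in KO FBS and 1.23 (SE 0.127, adjusted p = 4.18e-05) in KO CMS, both called, with 9.47% and 9.56% of all genes called higher there. In WT it was 0.42 in FBS and 0.24 under CMS, both past the test. KO SSt lay below WT SSt without overlap, -1.26 (SE 0.103, adjusted p = 2.13e-07). Kif7, a regulator of hedgehog signalling at the tip of the primary cilium, was the 1 ciliary kinesin that was tested. In KO-MSCs, Kif7 measured 4.57, 4.17 and 3.79 FPKM under CMS and 4.26, 4.55 and 4.46 FPKM in FBS, against 4.75, 4.86 and 4.35 FPKM in SSt. In WT-MSCs, Kif7 measured 4.80, 4.95 and 4.33 FPKM under CMS and 5.01, 5.54 and 4.64 FPKM in FBS, against 3.45, 3.71 and 3.54 FPKM in SSt. It passed as higher in WT CMS, 0.37 (SE 0.0795, adjusted p = 0.00214), and WT FBS, 0.47 (SE 0.0794, adjusted p = 0.000454), had values of -0.05 and -0.01 in KO, and differed in response between the genotypes by -0.41 for CMS and -0.47 for FBS, both past the test but not called.

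The remaining kinesins stayed below 1 FPKM in every library. Of those known from motile cilia, Kif6 reached at most 0.222 FPKM, Kif9 0.430 FPKM, Kif19 0.342 FPKM and Kif27 0.126 FPKM, and the nonmotile Kif26a at most 0.136 FPKM. Kif9 and Kif19 had counts in all 18 libraries. In the fit without a filter, Kif9 was called higher in KO CMS, 1.62 (SE 0.511, adjusted p = 0.0289), and KO FBS, 1.47 (SE 0.510, adjusted p = 0.0445). Kif12 had counts in 1 library, and at most 4. Kif28p had none in any library, which allows up to 3 counts per library. In all, 11 of the 41 members stayed below 1 FPKM in every library.

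RNA of most proteins that work beside the mitotic kinesins followed that of the motors. Of 22 spindle partners and regulators, 20 were called lower in KO CMS and 19 in KO FBS, and 7 each in WT CMS and WT FBS, against 9.66%, 7.67%, 8.02% and 7.14% of all genes called lower in KO CMS, KO FBS, WT CMS and WT FBS. The KO FBS count was also 19 without replicate 1 of KO FBS. Their median log2 difference was -3.42 in KO CMS and -2.26 in KO FBS, against -0.92 in WT CMS and -0.95 in WT FBS. Anln, the contractile ring scaffold anillin, had 3.92, 3.53 and 3.00 FPKM in KO CMS and 4.21, 9.05 and 8.61 FPKM in KO FBS, against 61.4, 67.7 and 72.2 FPKM in KO SSt. In WT it had 9.15, 9.34 and 9.35 FPKM under CMS and 10.2, 8.79 and 12.2 FPKM in FBS, against 35.7, 36.9 and 40.0 FPKM in SSt. Racgap1, the centralspindlin partner of Kif23, had 0.576, 0.415 and 1.82 FPKM in KO CMS and 1.91, 5.41 and 5.84 FPKM in KO FBS, against 24.1, 24.3 and 24.8 FPKM in KO SSt. Its WT libraries overlapped between groups, unlike those of Kif23, and spread widely within SSt, at 10.5, 4.81 and 7.35 FPKM. Numa1, which anchors dynein at the poles, did not share the drop, with log2 differences of -0.04 in KO CMS and 0.34 in WT CMS. The response to CMS differed between the genotypes in 21 of the 22 at the level of a call, where 6.65% of all genes were called with a more negative response in KO.

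The tubulins, from which the tracks of all kinesins are built, moved less. Of 12 tested in KO, 8 were called lower and 1, Tuba8, higher under CMS, and 6 lower in FBS; of 11 in WT, 3 were called lower under CMS and 2 in FBS. The shares of all genes called lower, given above for the spindle partners, apply here too, and without replicate 1 of KO FBS 5 tubulins were called lower in KO FBS. Tuba1b, the most abundant, had 232, 232 and 234 FPKM in KO CMS and 286, 411 and 411 FPKM in KO FBS, against 729, 779 and 800 FPKM in KO SSt. In WT it had 399, 398 and 390 FPKM under CMS and 453, 477 and 463 FPKM in FBS, against 495, 511 and 495 FPKM in SSt. Adaptors and light chains of the transport motors moved less: of 14 tested, 5 passed as higher and 4 as lower in KO CMS, and 7 as higher and 3 as lower in WT CMS, all below 2-fold. Of all genes, 30.8% passed as higher and 30.7% as lower in KO CMS, and 34.6% and 32.3% in WT CMS. The KO counts thus lay near the shares of all genes. Klc1, a kinesin-1 light chain, had log2 differences of -0.21 in KO CMS and 0.27 in WT CMS, and Klc2 of -0.61 and -0.71. Of the 19 tested genes of cytoplasmic dynein and dynactin, the minus-end motor that returns kinesin cargo, Nde1 was called lower in KO CMS, -1.17, and Dync1i1 was called higher in WT CMS, 2.63, and WT FBS, 2.52. Dync1i1 was low, at 1.40, 1.31 and 1.37 FPKM in WT CMS and 1.21, 1.45 and 1.15 FPKM in WT FBS, against 0.285, 0.0380 and 0.316 FPKM in WT SSt. It entered the WT fit only through its treated libraries, so it could hardly fail to be higher there. Of all genes, 8.66% were called higher in WT CMS and 8.95% in WT FBS. In SSt its level was called higher in KO than in WT, 2.12 on the log2 scale, where 2.67% of all genes were called higher.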

How the data were processed

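The authors deposited 1 table per genotype with a raw read count and an FPKM value per gene and library; per the submitters' processing notes Bowtie 0.12.2 and the build mm10 were used, while gene identifiers are those of rat, so no coordinates of the tables are given. Whether counting used strand is not given in the sources used here. The FPKM values set by the authors to a constant where the count is 0 were read as 0. From the counts, edgeR 4.0.16 (R 4.3.3; TMM scaling, quasi-likelihood F test) was fitted within each genotype (9 libraries) and, for differences between genotypes, to all 18 libraries, on genes at 1 FPKM or more in at least 3 libraries, 12916 in WT, 12888 in KO and 13317 jointly, with Benjamini-Hochberg adjustment. SE is the log2 fold change over the root of F. The procedure was tested on simulated data. Depth was 56083000 to 71847969 counts. Libraries were grouped by their labels. Values in every library are given for each member called within a genotype or in a difference of responses and for the 3 most abundant tested members of each role list; other members named were chosen after their values were seen. Members and lists were chosen with earlier results of these data known. Alternatives were DESeq2 1.42.0, limma 3.58.1 on log2(FPKM + 0.1, 1 or 5), RLE or library-total scaling, no filter or 5 FPKM, no fold limit, the 6 libraries alone, a replicate block and each library left out. Promoters came from RefSeq, build GRCr8; Kif2c had several entries and the first was used. Figures were drawn with matplotlib 3.10.9.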

Additional observations from a re-analysis of the deposited data

Results flagged for a closer look

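The kinesin genes below stood out because their response over SSt differed between KO and WT in the joint fit of all 18 libraries (edgeR's quasi-likelihood test of the difference of responses, at least 2-fold). Each value is the KO log2 response minus the WT log2 response. For CMS, 13 mitotic motors had a more negative response in KO. The values were -3.06 for Kif11 (adjusted p = 3.04e-05), -3.00 for Kif14 (adjusted p = 0.000215), -2.54 for Kif15 (adjusted p = 3.82e-05), -1.85 for Kif18a (adjusted p = 0.00183), -2.56 for Kif18b (adjusted p = 6.73e-06), -2.43 for Kif20a (adjusted p = 1.32e-05) and -2.72 for Kif20b (adjusted p = 0.000248). They were -1.74 for Kif22 (adjusted p = 1.7e-06), -2.96 for Kif23 (adjusted p = 1.11e-05), -1.66 for Kif24 (adjusted p = 0.00445), -2.72 for Kif2c (adjusted p = 1.59e-05), -2.60 for Kif4a (adjusted p = 2.85e-05) and -2.49 for Kifc1 (adjusted p = 5.71e-05) for the rest. Kif21b was the 1 kinesin called with a more positive CMS response in KO, 1.02 (adjusted p = 6.41e-05); all 3 KO libraries under CMS lay above KO SSt, and all 3 WT libraries under CMS lay below WT SSt.

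For FBS, 11 mitotic motors had a more negative response in KO. The values were -1.71 for Kif11 (adjusted p = 0.00427), -1.73 for Kif14 (adjusted p = 0.0133), -1.08 for Kif15 (adjusted p = 0.0235), -1.18 for Kif18b (adjusted p = 0.00455), -1.47 for Kif20a (adjusted p = 0.00133) and -1.52 for Kif20b (adjusted p = 0.0176). The others had -1.60 for Kif23 (adjusted p = 0.00237), -1.50 for Kif24 (adjusted p = 0.011), -1.61 for Kif2c (adjusted p = 0.00178), -1.53 for Kif4a (adjusted p = 0.00281) and -1.31 for Kifc1 (adjusted p = 0.00974). Replicate 1 of KO FBS was the lowest of its group for each of these genes. Without it 8 of the 11 were called, and Kif15, Kif18b and Kifc1 missed 2-fold at -0.80, -0.90 and -0.96. SSt libraries enter both sets, so the FBS and CMS values are not independent of each other. Kif24, in both sets, entered the joint fit only through SSt libraries.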

How the results depend on the processing

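The members called by edgeR were followed under DESeq2, limma on log2(FPKM + 1), RLE scaling, the replicate block and the omission of single libraries. Of their log2 fold changes, 1104 kept their direction and passed at an adjusted p below 0.05, whether or not they still differed 2-fold. Another 38 kept their direction and missed the test, and 0 reversed. Members that were not called were not tallied. Of the counts of called kinesins, 155 stayed within 1.5 times and 39 did not. With limma on log2(FPKM + 5), the counts were 0 for KO CMS over KO FBS (7 by edgeR), 10 for KO CMS over KO SSt (17), 0 for KO CMS over WT CMS (14), 9 for KO FBS over KO SSt (16), 0 for KO FBS over WT FBS (4), 0 for KO SSt over WT SSt (3), 8 for the difference of CMS responses (14), 5 for that of FBS responses (11), 0 for WT CMS over WT SSt (9) and 0 for WT FBS over WT SSt (6). With limma on log2(FPKM + 1) they were 1 for KO CMS over KO FBS, 9 for KO CMS over WT CMS, 0 for KO FBS over WT FBS, 1 for KO SSt over WT SSt, 4 for WT CMS over WT SSt and 1 for WT FBS over WT SSt. With log2(FPKM + 0.1), KO CMS over KO FBS gave 4. A minimum of 5 FPKM, which tests fewer genes, gave 0 for KO FBS over WT FBS, 5 for WT CMS over WT SSt and 2 for WT FBS over WT SSt, and no filter gave 5 for KO SSt over WT SSt and 11 for WT FBS over WT SSt. With no fold limit the counts were 25 for KO FBS over KO SSt, 11 for KO FBS over WT FBS, 22 for KO SSt over WT SSt, 25 and 23 for the differences of the CMS and FBS responses, 5 for WT CMS over WT FBS, and 25 each for WT CMS and WT FBS over WT SSt. A fit of the 6 libraries alone gave 1 for KO CMS over KO FBS; the cause was not tested. Leaving out 1 library at a time gave 1 to 11 for KO CMS over KO FBS, 15 to 17 for KO CMS over KO SSt, 15 to 17 for KO FBS over KO SSt, 14 to 15 for KO CMS over WT CMS, 1 to 5 for KO FBS over WT FBS, 3 to 4 for KO SSt over WT SSt, 13 to 15 and 8 to 16 for the differences of the CMS and FBS responses, 0 for WT CMS over WT FBS, 7 to 9 for WT CMS over WT SSt and 3 to 7 for WT FBS over WT SSt. For KO FBS over WT FBS the 1 call without replicate 1 of KO FBS was Kif5c.

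Replicate numbers do not pair the libraries: deviations of same-numbered libraries correlated at -0.24 to 0.17. A fit with the replicate block gave 2 for KO CMS over KO FBS, and the other counts stayed within 1.5 times; under it Kif23 in KO SSt over WT SSt was 0.91 (adjusted p = 0.0718) and Kif15 in the difference of FBS responses -1.10 (adjusted p = 0.0513). Scaling by library totals moved the median of all genes to -0.11 in KO CMS over KO SSt, -0.12 in the difference of FBS responses and -0.19 in that of CMS responses, and no kinesin call changed direction. Depth limits the 11 members that stayed below 1 FPKM, which could enter only the fit with no filter. Kif28p, without counts, did not enter it.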
